A study of Mus musculus with 8 samples.

Results

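Secreted Wnt antagonists are proteins that cells release to hold back Wnt signalling outside the cell. The 8 genes described here are the secreted frizzled-related proteins Frzb (also called Sfrp3), Sfrp1, Sfrp2, Sfrp4 and Sfrp5, the Dickkopf proteins Dkk2 and Dkk3, and Wif1. They were taken by gene symbol, as 8 of 16593 named genes, and have 10 of the 25697 probes on the array. Of these probes, 6 probes of 5 genes (Frzb, Sfrp1, Sfrp4, Dkk3 and Wif1) were kept because they were above background on 4 or more of the 8 arrays, against 9433 kept probes in all. The genes were chosen with the knockout-against-control values of these same arrays known, Frzb for its difference between the groups. Their group differences are therefore given as a description, without a test. Whether a member probe passed in the fit of all probes is not read as one.

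Wnt ligands bind Frizzled receptors together with the co-receptors LRP5 and LRP6, and in the canonical branch this stabilises beta-catenin, which drives transcription with TCF and LEF factors. Frizzled-related proteins carry a domain like the ligand-binding part of Frizzled and bind Wnt ligands directly, as does Wif1 through a domain of its own, whereas Dickkopf proteins such as Dkk2 bind the co-receptors. In the liver, Wnt signalling is known for the zonation of hepatocytes and has been linked to the change of stellate cells into myofibroblasts.

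RNA came from primary hepatic stellate cells, the vitamin A-storing pericytes of the liver, isolated from IL15Ra-knockout mice (4 samples) and wild-type control mice (4 samples) of the mixed B6/129 strain, 6 weeks old and labelled female. IL15Ra is the receptor chain that binds interleukin-15 and presents it to lymphocytes, and its gene is labelled as knocked out in the mouse, with no cell type named. Cells of both groups were isolated by pronase and collagenase perfusion and a Percoll gradient, cultured in medium with serum, and harvested at passage 0 with no further treatment. Each sample was run on 1 Illumina BeadChip array. Whether the 4 samples per group stem from different animals is not stated, and any p-value here reflects the variation among these 8 samples alone, which could be technical.

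Each array had between 6760 and 10516 probes above background (detection p under 0.05) and a median signal between 113.6 and 149.8. Knockout 1, knockout 4 and control 3 had the fewest probes above background (7765, 7830 and 6760) and stood apart from the other 5 arrays. None of the 4 probes of Il15ra was above background on any array, so the deletion could not be checked. Probes of the Y-linked genes Uty, Kdm5d and Eif2s3y were above background on all 8 arrays, against the label female. Of 9 stellate cell marker genes with a probe, Des, Hgf, Reln, Pdgfrb and Ecm1 were kept, while Lrat, Gfap, Rgs5 and Ngfr were not above background on any array. The macrophage genes Adgre1 and Lyz2 were bright on all 8 arrays, with a log2 signal on their brightest probes of 13.77 ± 0.02 and 13.66 ± 0.07 in the control arrays (SD, n = 4). They were the brightest of 6 macrophage genes with a probe. Vsig4 was also bright, at 13.09 ± 0.31 in the control arrays, and a Clec4f probe lay at 8.74 ± 1.00. Both were above background on all 8 arrays, and the other Clec4f probe on 1 array. Marco and C1qa were dim, at 7.06 ± 0.85 and 5.96 ± 0.59 in the control arrays, with C1qa above background on 5 arrays. Every value below is thus one of a culture of mixed cells, in which fewer cells of a type and less RNA per cell cannot be told apart.

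The sequence upstream of the start is shown for Frzb, because it is the member whose knockout and control values lay apart, and for Wif1, as the other member with a kept probe that has an entry in the RefSeq promoter table (build GRCm38.p6). Each run is the 250 bases before the annotated start, 5′ to 3′ on the gene's strand.
Frzb promoter, chr2:80447397-80447646 (minus strand): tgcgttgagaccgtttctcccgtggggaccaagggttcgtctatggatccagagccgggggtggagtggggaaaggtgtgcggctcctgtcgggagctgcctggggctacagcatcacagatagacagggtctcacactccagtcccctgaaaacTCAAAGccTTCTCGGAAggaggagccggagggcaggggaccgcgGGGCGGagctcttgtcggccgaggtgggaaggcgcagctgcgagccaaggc
Wif1 promoter, chr10:121033754-121034003 (plus strand): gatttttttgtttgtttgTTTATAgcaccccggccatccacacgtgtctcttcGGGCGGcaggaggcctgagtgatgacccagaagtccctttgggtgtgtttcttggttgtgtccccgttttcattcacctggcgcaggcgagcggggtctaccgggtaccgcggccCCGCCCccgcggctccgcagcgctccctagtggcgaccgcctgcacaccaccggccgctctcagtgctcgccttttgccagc
Capitals mark matches, on either strand, to any of 5 short motifs. CTTTGA is the core that TCF and LEF factors bind, and TTCNNNGAA is the palindrome of STAT factors. The letters GGGCGG stand for the GC box of Sp factors, the run CCAAT is the box of NF-Y, and the motif TATAAA forms the core of the TATA box. The Frzb window held 1 match each to CTTTGA, TTCNNNGAA and GGGCGG, with no overlap between them, starting 95, 87 and 51 bases before the start. The Wif1 window held 1 match to TATAAA and 2 matches to GGGCGG. Of 32851 such windows in the table, 13.8% held CTTTGA, 7.02% TTCNNNGAA, 32.7% GGGCGG, 33.8% CCAAT and 12.4% TATAAA. Of the members with an entry, only Frzb had a match to CTTTGA or to TTCNNNGAA, and Sfrp2 had none to any of the 5 motifs. These are letter matches in a window and no evidence of binding.

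Frzb gave a clear signal on all 8 arrays and was the member that separated the groups. Its signal before normalisation was 621.2 on knockout 1, 724.7 on knockout 2, 896.5 on knockout 3 and 884.5 on knockout 4, and 1969.6, 1915.2, 2238.4 and 2562.5 on control 1 to control 4. After background correction and quantile normalisation, the scale of all log2 levels below, Frzb lay at 9.69, 9.31, 9.67 and 9.77 on knockout 1 to 4 and at 10.81, 10.84, 10.88 and 10.92 on control 1 to 4. All 4 knockout values were below all 4 control values. The lowest control value lay about 1 unit above the highest knockout value, and knockout 2 was the lowest array.

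The mean log2 level of Frzb was 9.61 ± 0.21 over the knockout arrays against 10.86 ± 0.05 over the control arrays (SD, n = 4 each). The log2 difference was thus -1.25 (standard error 0.17), or a 2.38-fold lower level in the knockout cultures. The normalised signals include an offset of 16 units. The 4 control arrays differed very little for Frzb. Their SD of 0.05 compares with a median SD of 0.55 over the control arrays among all kept probes, and 0.488% of kept probes had a smaller one. Frzb has 1 probe on the array, so no second probe bears on its difference. Mismatches between mouse strains under the probe were not tested.

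**Figure D1:**
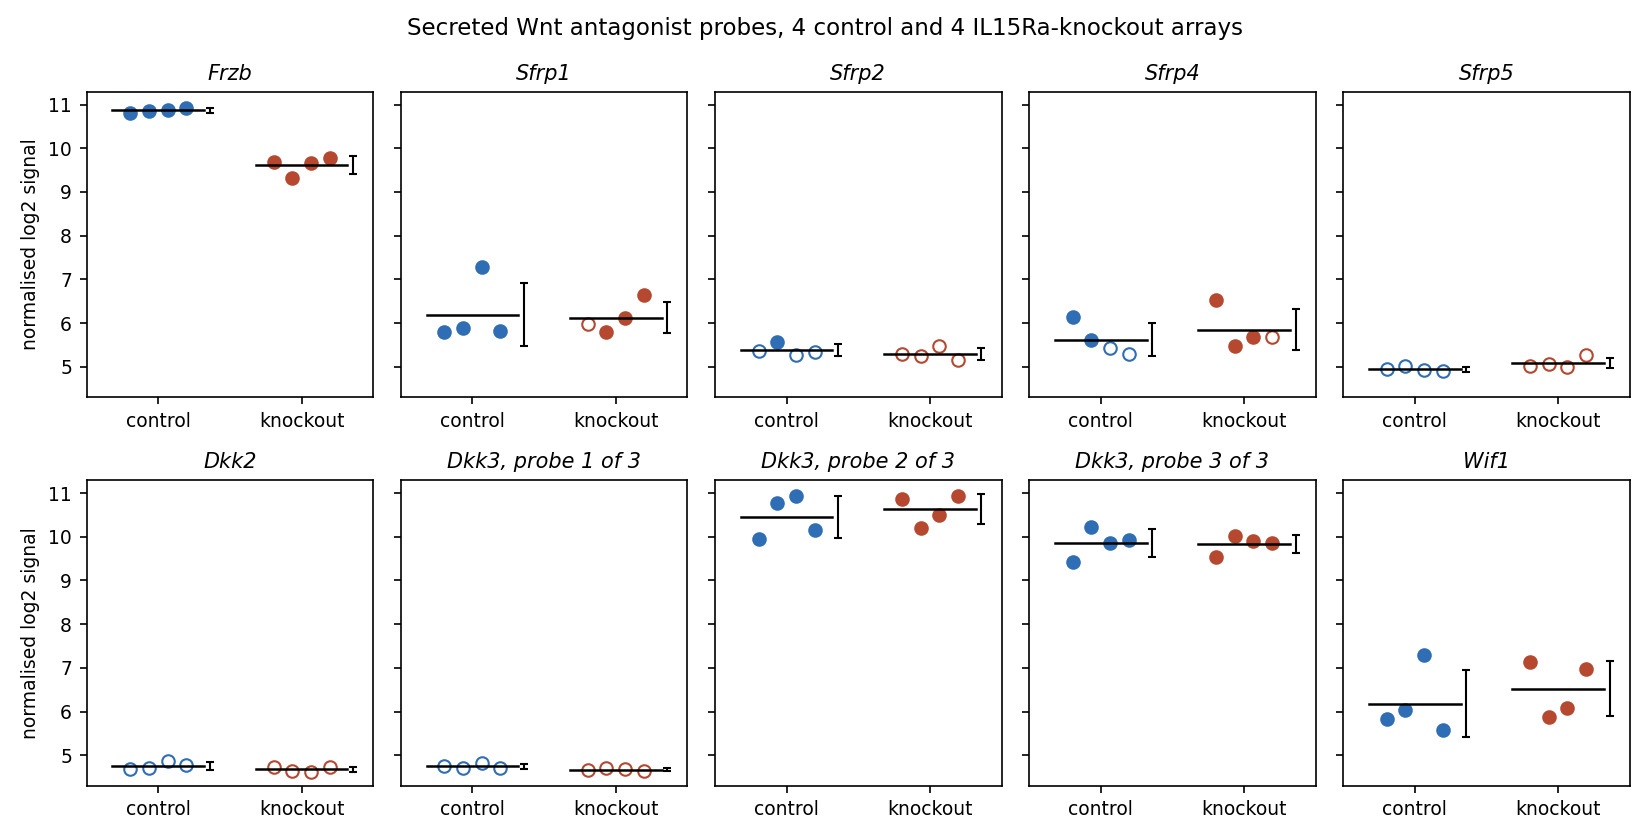
Normalised log2 signal of the 10 probes of the 8 secreted Wnt antagonist genes on each control (blue) and IL15Ra-knockout (red) array, in replicate order. Filled points are above background on that array (detection p under 0.05), open points are not, lines are group means and bars the SD (n = 4). Frzb lies between 9.31 and 9.77 in the knockout and between 10.81 and 10.92 in the control arrays, while the kept probes of the other members overlap.

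Among the 6 kept probes of the members, 1 probe, that of Frzb, had an adjusted p under 0.05 in the limma fit across all kept probes, where 0.53% of the 9433 probes did. The same probe was the only one of the 6 kept probes whose groups did not overlap, against 5.02% of all kept probes in either direction and 1.91% with the knockout lower. Frzb was chosen for this difference, so nothing is read from either count, or from whether a member probe passed in the fits below. No member probe passed without knockout 3, knockout 4, control 1, control 2 or control 4 (0 of 6 each), and Frzb passed without knockout 1, knockout 2 or control 3. The log2 difference of Frzb itself stayed between -1.30 and -1.15 in these 8 fits. It was -1.37 without the 3 arrays with the fewest probes above background, and -0.99 with median scaling in place of quantile normalisation, where no member probe passed. The plot of Frzb under each alternative shows the values side by side.

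**Figure D2:**
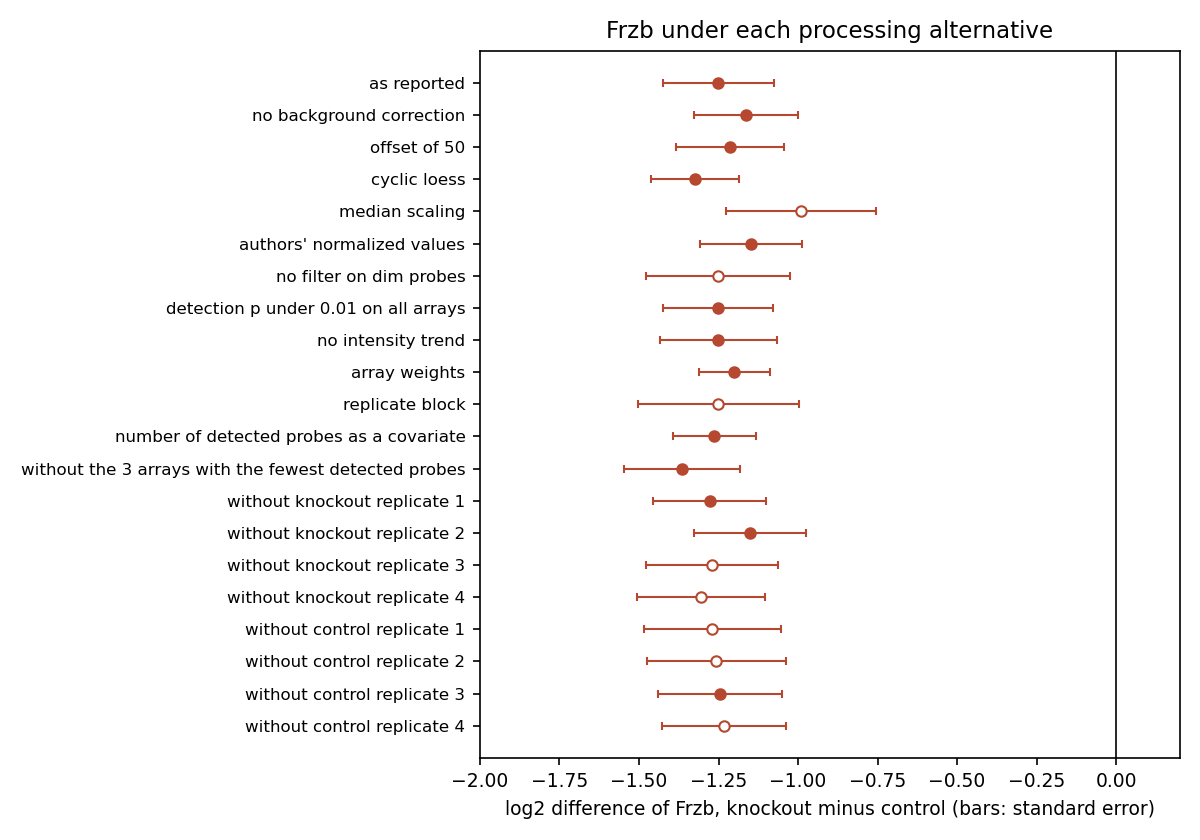
Log2 difference of Frzb, knockout minus control, as reported and under each of 20 alternatives, with its standard error. Filled points passed the adjusted p of 0.05 over all probes of that fit and open points did not. Frzb was chosen for this difference, so a pass is not a test of it. All values lie between -1.37 and -0.99.

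The other frizzled-related proteins were dim. Sfrp1 was above background on 7 of 8 arrays, at 5.98, 5.79, 6.11 and 6.63 on knockout 1 to 4 and at 5.80, 5.88, 7.28 and 5.81 on control 1 to 4. The groups overlapped, and control 3 was the highest array by a wide margin. The log2 difference of Sfrp1 was -0.06 (standard error 0.39), and 0.30 without control 3. Sfrp4, whose human counterpart is known from the bone disorder caused by its loss, was above background on 3 knockout and 2 control arrays. It lay at 6.54, 5.49, 5.69 and 5.68 on knockout 1 to 4 and at 6.15, 5.62, 5.43 and 5.29 on control 1 to 4, with overlapping groups. Its log2 difference was 0.23 (standard error 0.31), and -0.0035 without knockout 1, its highest array. Sfrp2, which is close to Sfrp1 in sequence, was above background on control 2 alone and lay between 5.15 and 5.48 in the knockout and between 5.27 and 5.58 in the control arrays. Sfrp5 was not above background on any array, with a lowest detection p of 0.135.

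Of the Dickkopf genes, Dkk3 was well measured and Dkk2 was not. Dkk3 encodes a secreted protein of the family that, unlike its relatives, is not an established inhibitor at LRP6. It has 3 probes, and 2 of them, probe 2 and probe 3, were above background on all 8 arrays. Probe 2 lay at 10.87, 10.21, 10.50 and 10.94 on knockout 1 to 4 and at 9.96, 10.78, 10.93 and 10.14 on control 1 to 4. Probe 3 lay at 9.55, 10.02, 9.91 and 9.86 on the knockout and at 9.43, 10.23, 9.85 and 9.93 on the control arrays. On both probes the groups overlapped. The log2 differences were 0.18 (standard error 0.28) and -0.03 (standard error 0.23).

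The pair of kept Dkk3 probes did not follow each other closely over the arrays. With group means subtracted, Pearson's r between them over the 8 arrays was 0.23. Knockout 1, knockout 4 and control 3 were among the highest arrays on probe 2, and on probe 3 knockout 1 was the lowest knockout array and control 2 the highest of all. Probe 1 of Dkk3 was not above background on any array, with a lowest detection p of 0.449, so it gives no measurement of Dkk3 here. Dkk2, a Dickkopf protein that binds LRP5 and LRP6, was likewise not above background on any array, with a lowest detection p of 0.381 and log2 values between 4.63 and 4.88.

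Wif1, which binds Wnt ligands through its WIF domain, was dim but above background on all 8 arrays. It lay at 7.13, 5.88, 6.08 and 6.98 on knockout 1 to 4 and at 5.83, 6.03, 7.30 and 5.57 on control 1 to 4. Knockout 1, knockout 4 and control 3 were the high arrays, and the groups overlapped. The log2 difference was 0.34 (standard error 0.46), 0.17 without these 3 arrays and 0.71 without control 3 alone.

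The arrays on which Wif1 was high are those with the fewest probes above background. On those 3 arrays Wif1 lay between 6.98 and 7.30, and on the other 5 between 5.57 and 6.08. Dkk3 probe 2 lay between 10.87 and 10.94 on the 3 arrays and between 9.96 and 10.78 on the other 5. Sfrp1 lay between 5.98 and 7.28 on the 3 arrays and between 5.79 and 6.11 on the other 5, so its ranges overlapped. With group means subtracted, Pearson's r over the 8 arrays with the number of probes above background was -0.96 for Wif1, -0.86 for Sfrp1, -0.84 for Dkk3 probe 2 and -0.64 for Frzb. It was 0.20 for Dkk3 probe 3 and -0.15 for Sfrp4. These are descriptions of arrays that share a normalisation. Of all kept probes, 23.4% had an r under -0.9 and the median r was -0.46. The part of array quality in the levels of Wif1, Sfrp1 and Dkk3 was not tested. For Frzb the log2 difference was -1.26 with the number of probes above background as a covariate and -1.25 without it. That number ran from 7765 to 10516 in the knockout and from 6760 to 9961 in the control arrays. With such similar ranges the covariate could hardly move a group difference. The part of array quality in the level of Frzb was not tested either.

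**Figure D3:**
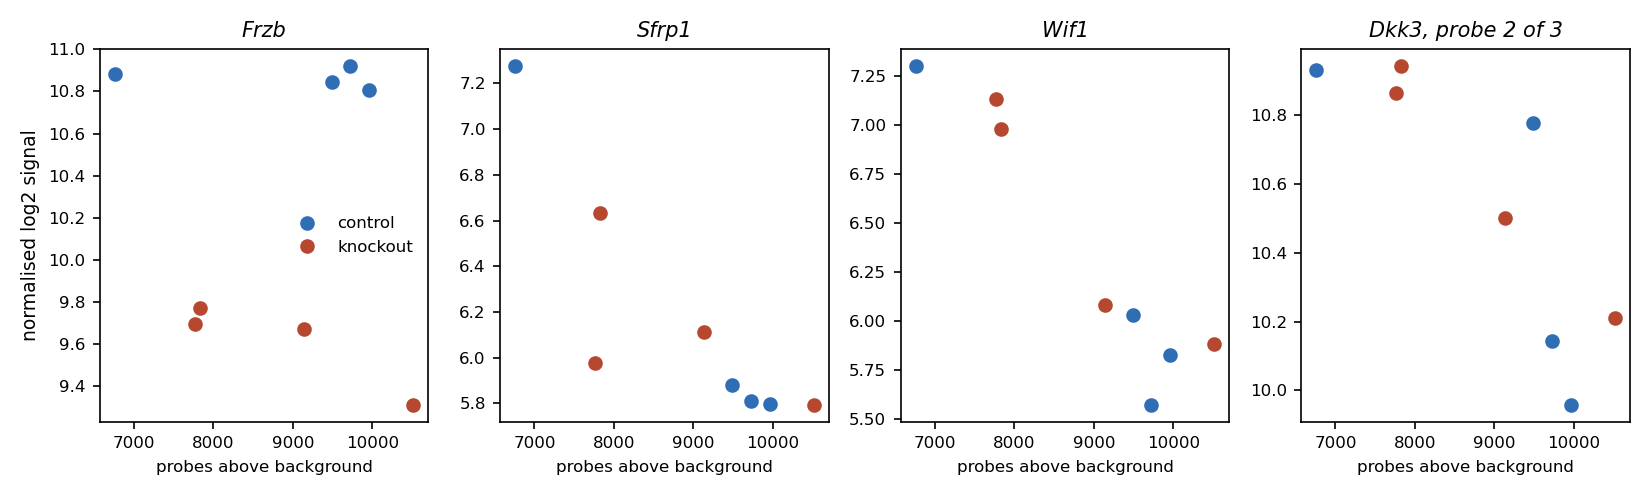
Normalised log2 signal of Frzb, Sfrp1, Wif1 and Dkk3 probe 2 against the number of probes above background on each array, control in blue and knockout in red. The vertical axes differ between panels and do not start at 0. Wif1 lies between 6.98 and 7.30 on the 3 arrays with the fewest such probes and at most at 6.08 on the others, whereas Frzb splits by group.

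The members did not vary together as a set. With group means subtracted, the highest r over the 8 arrays between kept probes of different members was 0.84, between Wif1 and Dkk3 probe 2, followed by 0.83 between Wif1 and Sfrp1 and 0.70 between Sfrp1 and Dkk3 probe 2. These are the members that were high on arrays with few probes above background. Of 8777 probes compared with Wif1 on this measure, 31.6% had an r over 0.9. The lowest r between members was -0.76, between Sfrp4 and Dkk3 probe 3. The r of Frzb with the other kept probes ran from -0.21 with Dkk3 probe 3 to 0.54 with Dkk3 probe 2.

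The probes whose log2 levels followed Frzb most closely over the 8 arrays were those of Ctsc (Pearson's r of 0.99), a lysosomal dipeptidyl peptidase gene, Rerg (0.98), a Ras-like growth inhibitor gene, Clec10a (0.98), a C-type lectin gene of macrophages and dendritic cells, Mmp13 (0.98), a collagenase gene, and H2-Aa (0.98), an MHC class II gene. All of these fell in the knockout arrays in the limma fit (adjusted p of at most 0.00449), with log2 differences of -3.91, -1.88, -1.78, -1.80 and -3.24, so the likeness holds the group difference itself. With group means subtracted, the closest 5 were Trim65, Rassf1, Herc4, Pls3 and Fbxo38, with r between 0.90 and 0.97, and none of them stood among the closest 5 over the 8 arrays. Of 8777 probes compared, 39 had an r over 0.9 with Frzb over the 8 arrays (0.444%), against 2152 with Wif1 (24.5%) and 282 with Sfrp1 (3.21%).

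The closest probes to Wif1 were those of Rpl23, Mfsd9, Zfp687, Prmt9 and Macir, with r of at least 0.996. Those closest to Sfrp1 were Cttn, Krtap5-5, Klc1, Dcaf8 and Dpp6, with r from 0.980 to 0.988. For Dkk3 probe 2 they were Otulin, Thbs2, Pam, Emc3 and Gfra1 (0.953 to 0.968), and for probe 3 Acaa2, Tmbim6, Txn1, Fam207a and Timmdc1 (0.838 to 0.867), so the Dkk3 probes had none of these in common. For Sfrp4 they were Rsrc2, Gbp7, Insyn1, Eif3d and Mmp1a (0.859 to 0.884).

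The rest of the Wnt pathway showed no call. Of 93 other pathway genes listed, 87 had a probe and 34 genes, with 42 probes, were kept. With limma and Benjamini-Hochberg adjustment over all kept probes, 0 of the 42 probes passed in either direction, against 0.53% of all kept probes, and 1 had an unadjusted p under 0.05, against 6.31% of all. Their log2 differences lay above 0 for 21 probes and below 0 for 21, with a median of -0.02, against 0.03 over all kept probes. The plot of log2 differences shows these probes by role.

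Of the 19 Wnt ligand genes, 17 were not above background on any array. Wnt2 was above background on 7 arrays. Its level was 7.70 ± 0.98 over the knockout arrays against 6.42 ± 1.01 over the control arrays (SD, n = 4 each), and the log2 difference was 1.28 (limma adjusted p = 0.860). Wnt5a, a ligand best known for signalling without beta-catenin, had a log2 difference of 0.10 (standard error 0.63). Wls, the carrier that brings Wnt ligands to the cell surface, had one of -0.56, and Porcn, the enzyme that acylates them, one of 0.06. Neither ligand and neither secretion gene passed.

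The R-spondin gene Rspo3 had the smallest p of the pathway. R-spondins raise Wnt signalling by keeping Frizzled receptors on the cell surface. Rspo3 lay at 7.42, 7.20, 7.60 and 7.22 on knockout 1 to 4 and at 8.72, 8.61, 8.07 and 8.74 on control 1 to 4. All knockout values were below all control values, which holds at 1.91% of kept probes. The log2 difference was -1.18 (standard error 0.28), and the limma adjusted p was 0.156, so Rspo3 did not pass. Over the alternatives the adjusted p ran from 0.00170 to 0.993, and it was 0.0434 without control 3 and 0.0419 without the 3 arrays with the fewest probes above background. The other agonist and agonist receptor genes with a probe, Rspo1, Rspo2, Rspo4, Lgr5, Lgr6 and Ndp, were not above background on any array.

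Of 14 receptor and co-receptor genes with a probe, 6 were kept and none passed. Fzd7 had a log2 difference of -0.71, Fzd6 of 0.27 and the co-receptor gene Lrp5 of 0.29, with standard errors of 0.58, 0.31 and 0.35. Of the other extracellular or membrane inhibitors, Dkkl1, Draxin and Kremen2 were kept, with log2 differences of -0.50, 0.23 and 0.04, while 8 of 11 genes were not above background on any array. Kremen2 encodes a receptor for Dickkopf proteins.

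Inside the cell, 7 genes each of the cytoplasmic and nuclear lists were kept and none passed. Dvl1, a Dishevelled gene that relays the signal from Frizzled, had a log2 difference of -1.36 (standard error 0.74). Its kept probe was above background on 2 knockout and 3 control arrays. The level was lowest on knockout 1, knockout 4 and control 3, at 4.84, 4.78 and 4.84. The kinase gene Csnk1e had one of -1.10 on 1 probe (standard error 0.69) and of -0.07 on its other kept probe (0.40). Ctnnb1, the gene of beta-catenin, had one of -0.67 on 1 probe (standard error 0.67) and 0.04 on its other one (0.11). Whether the probes of a gene differ was not tested. In the nuclear list, the TCF gene Tcf7l2 had log2 differences of -0.38 and -0.32, Bcl9 of -0.38 and Pygo2 of 0.09. Among commonly used beta-catenin target genes, 6 of 12 were kept and none passed. Ccnd1, the cyclin D1 gene, had a log2 difference of 0.75 on 1 probe and of -0.22 and -0.19 on the others, Ccn4 had one of 0.17 and Sp5 of -0.40. The target list had a median of -0.20, with 3 probes above and 5 below 0.

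**Figure D4:**
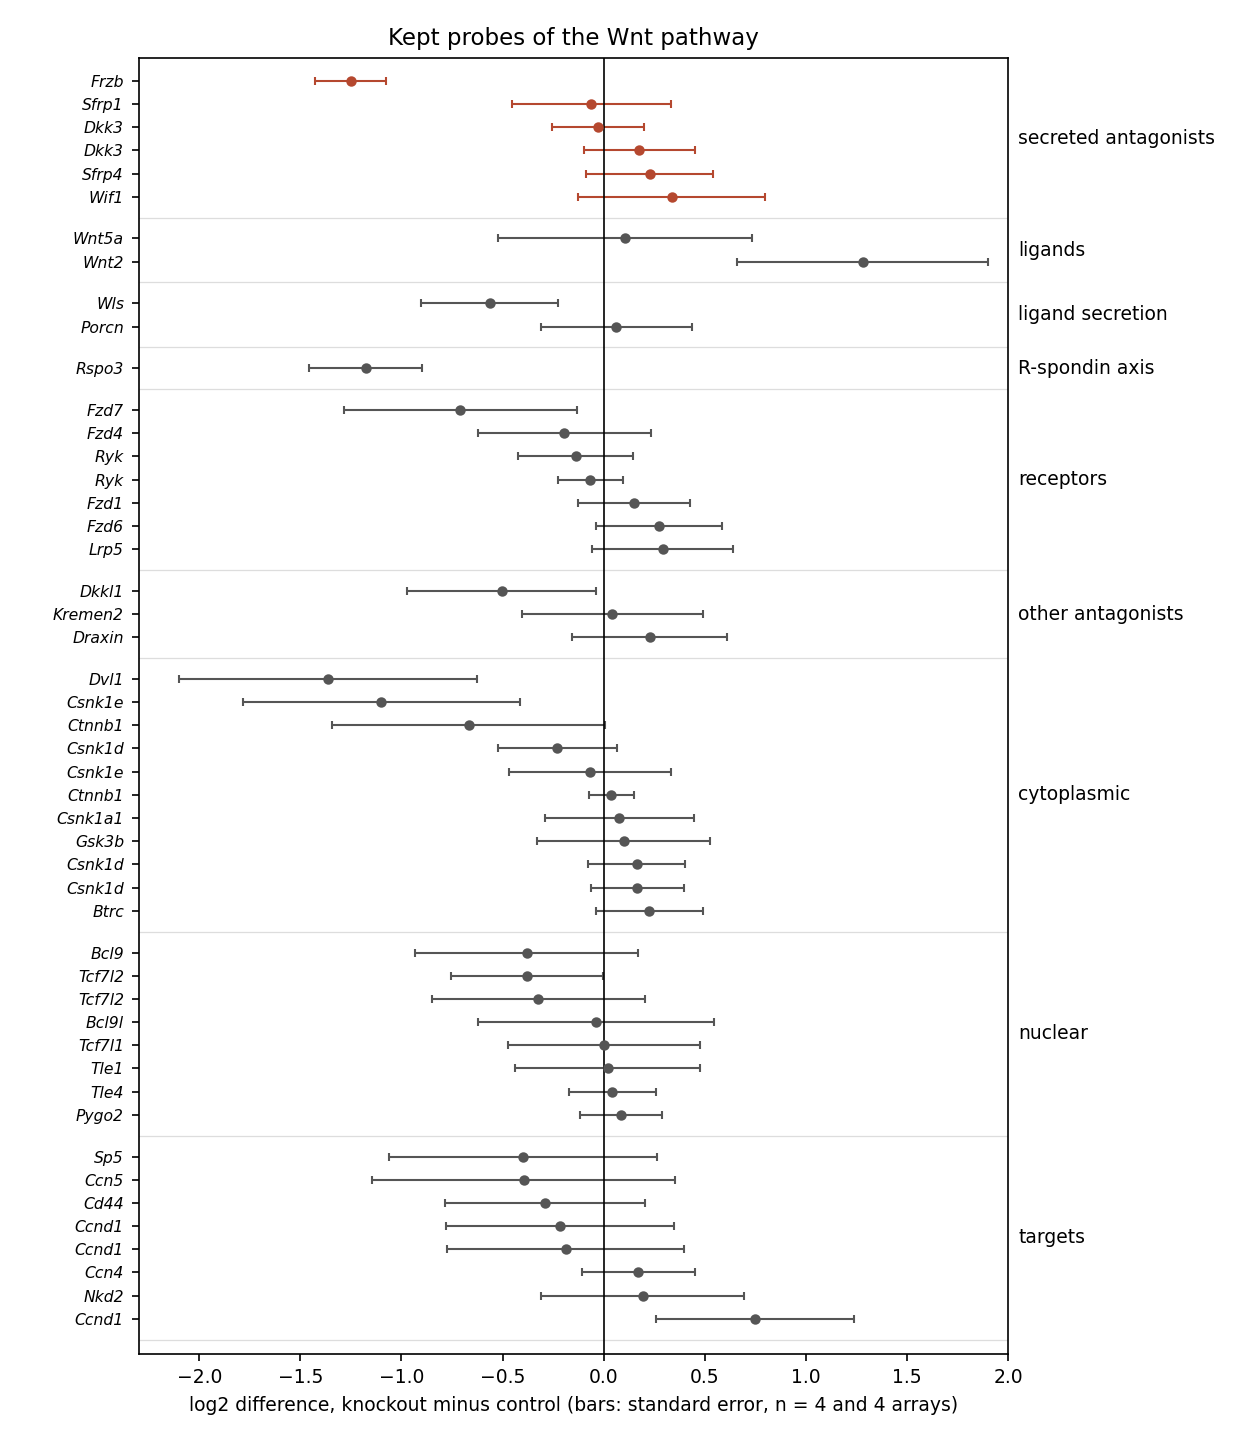
Log2 difference, knockout minus control, of the kept probes of the secreted antagonists (red) and of 42 probes of other Wnt pathway genes (grey), grouped by role, with bars for the standard error (n = 4 arrays per group). Frzb lies at -1.25 and Rspo3 at -1.18, and most bars of the other probes cross 0.

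Marker genes of other cell types and of stellate cells were set beside Frzb. In these lists, 1 stellate cell and 1 mesothelial probe passed the threshold, against 0.53% of all kept probes. The lists were chosen with earlier results of these data known, so nothing is read from these counts. All 5 kept stellate cell probes lay lower in the knockout arrays, with a median log2 difference of -0.50, and 1 of them fell, Reln, at 9.42 ± 0.34 against 11.03 ± 0.35 (SD, n = 4 each, limma adjusted p = 0.0289). The summed normalised signal of these 5 probes, less the offset, ran from 2562 to 2980 in the knockout and from 4306 to 5366 in the control arrays. All 10 kept mesothelial probes lay higher in the knockout arrays, with a median of 0.50, and 1 of them rose, Pdpn, at 13.42 ± 0.17 against 11.92 ± 0.32 (SD, n = 4 each, limma adjusted p = 0.00571). Their summed signal ran from 23746 to 31657 in the knockout and from 12096 to 18319 in the control arrays. Neither of these sums overlapped between the groups, but linear sums rest largely on their brightest probes. These were Reln in the control arrays for the stellate cell list, and Pdpn and Upk1b for the mesothelial list. Pdgfrb, Ecm1, Des and Hgf had log2 differences of -0.83, -0.50, -0.13 and -0.10, with standard errors of 0.42, 0.65, 0.27 and 0.31. Over all kept probes the median log2 difference was 0.03.

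Of 8 kept portal fibroblast probes, 6 lay higher in the knockout, with a median of 0.68 and none past the threshold. Their summed signal ran from 6736 to 8256 in the knockout and from 3778 to 6303 in the control arrays, again without overlap. The brightest probe in this sum was that of Thy1, with mean log2 levels of 11.88 (knockout) and 11.21 (control). It was the only 1 of the 8 probes whose own groups did not overlap, so the sum does not show a shift of the whole list. Of 5 kept sinusoidal endothelial probes, all 5 lay lower, with a median of -0.66 and none past the threshold, and the sums of 407 to 881 and 568 to 1351 overlapped. Of 9 kept macrophage probes, 6 lay lower, with a median of -0.12 and none past the threshold, and the sums of 48823 to 55555 and 52196 to 56631 overlapped. The 9 kept myofibroblast probes had a median of 0.06 and the 2 kept lymphocyte probes one of -0.23, with none past the threshold. Of the hepatocyte genes, Alb, Apoa1, Cyp2e1, Fgb and Tat were not above background on any array, and 3 probes of Ttr and Serpina1a were kept, with a median of 0.81. Of the cholangiocyte genes, Krt7 was kept and did not pass, with a log2 difference of 0.57. Its groups did not overlap, which holds at 5.02% of all kept probes. Of the other kept marker probes, those of Reln, Pdpn, Upk1b, Thy1 and Stab2 and a probe of Timp1 did not overlap either. Krt19 and Sox9 were not above background on any array. The part of these cell types in the level of Frzb was not tested.

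Frzb and Il15ra lie on the same mouse chromosome, 2, with 538 protein-coding genes between them in the RefSeq gene order of GRCm38.p6. Of the 5 protein-coding genes on each side of Frzb, a set chosen after the values of Frzb were known, Itprid2, Pde1a, Dnajc10 and Dusp19 had 6 kept probes. With limma 0 of these 6 passed, against 0.53% of all kept probes, and 0 had an unadjusted p under 0.05, against 6.31%. The groups overlapped at all 6, and they did not overlap at 5.02% of all kept probes. With 6 probes such counts lie near these shares, so nothing is read from them. The 3 probes of Pde1a, a phosphodiesterase gene, had log2 differences of -0.71, -0.94 and -0.79, Itprid2 had one of -0.33, Dnajc10 one of 0.42 and Dusp19 one of 0.60.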

How the data were processed

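Per the file headers, the deposited table gives a mean bead signal per probe and array, a linear intensity without normalisation or background subtraction, and a detection p-value deposited beside it. A further deposited table holds intensity values quantile normalised by the authors, per the series' design text. The submitters' processing notes list GenomeStudio 3. Symbols come from the platform annotation, which names 23978 probes and leaves 1719 unnamed here.

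Signals were background corrected and quantile normalised to log2 values with neqc (limma 3.58.1, R 4.3.3, offset 16). Kept probes are those whose detection p was under 0.05 on 4 or more of the 8 arrays. They were fitted with lmFit and eBayes (trend on mean level), no block or covariate, and Benjamini-Hochberg adjustment over all kept probes at 0.05. Knockout was compared with control as labelled. Arrays of a group were not identical, and the number of arrays limits precision. The members and gene lists were chosen with earlier results of these data known. Named genes are all members, up to 3 pathway genes per list with the smallest p, up to 3 marker genes per list by signal (others were named after their values were seen), and the 5 probes closest to each kept member probe by Pearson's r. The alternatives are those in the closing section, and normalisation and filter were not redone when arrays were left out. An identity of member proteins was planned and is not analysed here.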

Additional observations from a re-analysis of the deposited data

Results flagged for a closer look

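A value was singled out where 1 array of a group of 4 lay far from the others, measured by Dixon's ratio of gap to range at its 95% critical value. Both groups were checked for the 10 member probes and the 42 kept probes of other Wnt pathway genes, 104 groups in all, and 8 passed, where chance passes about 5%. Probes vary together on these arrays, so these groups are not independent. In all 8 the array was control 3, the one with the fewest probes above background. Sfrp1 lay at 7.275 on control 3 and between 5.796 and 5.882 on the other control arrays. Kremen2 lay at 7.619 there and between 6.012 and 6.255 on the others. Fzd4 lay at 7.4 there and between 6.01 and 6.244 on the others, and Tle1 at 9.321 against 8.095 to 8.27. Control 3 was the low array for the remaining 4 probes. A Tcf7l2 probe lay at 5.303 there and between 7.142 and 7.427 on the others, and Tcf7l1 at 5.394 against 6.907 to 7.181. Ccn5 lay at 5.804 there and between 8.5 and 8.768 on the others, and a Ccnd1 probe at 9.199 against 10.98 to 11.32. No cause was tested.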

How the results depend on the processing

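The log2 difference of Frzb was below 0 in all 20 alternatives and moved by more than its replicate spread only with median scaling (-0.99). The count of member probes past the threshold was 1 as reported and is not read as a test. It fell to 0 with median scaling, with no filter on dim probes and with the replicate block. When each array was left out it ranged from 0 to 1. The signs of Sfrp1, Sfrp4 and Dkk3 probe 3 turned in 5, 4 and 5 alternatives. The count of all probes past the threshold, 50 as reported (22 higher, 28 lower), was 95 with cyclic loess (52 and 43), 91 with median scaling (60 and 31), 17 when a detection p under 0.01 was required of every array, 805 with array weights, 670 with the count of probes above background as a covariate, 169 without the 3 arrays lowest in that count, and between 22 and 123 when each array was left out. The median log2 difference of all probes tested was 0.03 as reported and 0.08 with median scaling. The count of Wnt pathway probes past the threshold, 0 as reported and 0 at an adjusted p under 0.1, was 2 with array weights, 2 with the covariate (Dvl1 and Rspo3 in both), 1 without the 3 arrays (Rspo3) and between 0 and 1 when each array was left out. The cause of these changes was not tested. With the replicate block 3 probes passed in all. With group means subtracted, the deviations of same-numbered arrays correlated at -0.66, 0.60, -0.75 and -0.82. The arrays with few probes above background stood apart across all probes, so these values cannot tell whether the replicate numbers pair the samples. Dim probes near background, as for Sfrp1, Sfrp4 and Wif1, have folds drawn towards 1 by the offset.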
